A study of Mus musculus with 9 samples.

Results

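Krt8, Krt18, Krt19 and Krt7 encode the keratins of simple epithelia, and Sprr1a encodes a small proline-rich precursor of the cornified envelope. These 5 genes were followed across mouse Reissner's membrane, fresh and after culture, through every probe set annotated to them. They are 5 of the 18193 genes that had a probe set with a single gene symbol. Krt8 had 3 probe sets and each of the others had 1, so 7 probe sets were described, and all 7 passed the filter on low signals that left 10242 genes for testing.

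Reissner's membrane is the thin sheet that divides the endolymph of the cochlea from the perilymph above it. The membranes came from adult mice of a strain not given in the sources used here, were dissected by hand and pooled. The dexamethasone group was kept as explants for 24 h with the synthetic glucocorticoid dexamethasone at 100 nM, the incubated group was kept for 24 h without it, and the fresh group went straight to RNA extraction. Each group had 3 oligonucleotide arrays, lettered A to C, and the labels name no transgene or mutation. On arrays B and C of the dexamethasone group the labelled dose is in mM, whereas it is 100 nM both for array A and in the design text. Chips of a group were hybridized from pooled tissue, so p-values reflect only how far chips differ, possibly a technical spread, and the number of arrays limits the precision. The labels describe native tissue that did not proliferate in culture.

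Keratins are the intermediate filament proteins of epithelial cells, and a filament is built from pairs of an acidic (type I) and a basic (type II) chain. Krt8 and Krt7 encode type II chains and Krt18 and Krt19 encode type I chains; the pair of K8 and K18 is the basic filament of single-layered epithelia, and K7 and K19 are added in ducts and linings. Sprr1a protein is cross-linked by transglutaminases into the cornified envelope of stratified epithelia, and in rodents its gene is also known to be induced in injured neurons and in heart muscle cells by cytokines of the gp130 receptor family. Cells facing endolymph in this membrane form a single epithelial layer, backed by a mesothelial layer.

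Promoters of the members are shown because the keratins moved together in culture while Sprr1a departed from them under dexamethasone. RefSeq sequences of GRCm38.p6 from 250 bases before to 50 bases after the annotated start were found for 4 of the 5 genes, and Krt19 is named only. Both strands were searched for TGANTCA (the AP-1 site), GGGCGG (the GC box), TATAAA (the TATA box) and AGAACA (an arm of the glucocorticoid response element). Capitals mark matches of these motifs in either orientation. The windows are Sprr1a at chr3:92485832-92486131 on the minus strand, Krt8 at chr15:102004293-102004592 on the minus strand and Krt18 at chr15:102027966-102028265 on the plus strand, each read 5′ to 3′ along its gene.
Sprr1a: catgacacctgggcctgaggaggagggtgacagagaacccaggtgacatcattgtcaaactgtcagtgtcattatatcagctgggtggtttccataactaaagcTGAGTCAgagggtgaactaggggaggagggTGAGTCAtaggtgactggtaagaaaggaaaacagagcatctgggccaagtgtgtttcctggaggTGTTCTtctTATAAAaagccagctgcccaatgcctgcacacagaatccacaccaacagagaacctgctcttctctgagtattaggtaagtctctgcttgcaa
Krt8: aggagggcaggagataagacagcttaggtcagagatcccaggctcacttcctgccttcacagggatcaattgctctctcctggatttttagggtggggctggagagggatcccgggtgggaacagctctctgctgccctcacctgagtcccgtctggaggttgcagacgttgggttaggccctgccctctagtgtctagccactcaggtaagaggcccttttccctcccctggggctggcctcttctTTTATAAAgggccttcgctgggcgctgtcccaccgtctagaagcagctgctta
Krt18: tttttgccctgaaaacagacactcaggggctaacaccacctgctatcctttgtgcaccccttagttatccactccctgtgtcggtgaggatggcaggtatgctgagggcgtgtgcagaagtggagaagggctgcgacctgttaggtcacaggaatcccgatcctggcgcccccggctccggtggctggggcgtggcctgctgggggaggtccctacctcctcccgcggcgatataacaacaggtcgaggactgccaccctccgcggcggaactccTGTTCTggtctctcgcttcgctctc

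The Sprr1a window held 2 AP-1 matches, both spelled TGAGTCA, which began 146 and 116 bases before the annotated start. It also held a TATA box that began 43 bases before the start and TGTTCT, the reverse complement of AGAACA, from 52 bases before it. Among 32851 mouse promoters of the same length, 7.81% held at least 1 AP-1 match and 0.46% held at least 2. The Krt8 window held overlapping TATA box matches at the annotated start and no other motif, and a TATA box stood in 13.6% of promoters. In the Krt18 window the single match was TGTTCT after the start, a motif found in 19.0% of promoters. Krt7, at chr15:101412153-101412452 on the plus strand, held 4 GC boxes and none of the other motifs, where 35.7% of promoters held at least 1 GC box and 19.5% at least 2. No AP-1 match stood in the 3 keratin windows. A match describes letters in this window only.

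Signals were linear array intensities that the authors had scaled to a common target on each array. The working floor was set at a signal of 200, which 37.4 to 37.7% of probe sets reached on dexamethasone arrays, 36.1 to 36.4% on incubated arrays and 39.4 to 39.5% on fresh arrays. Arrays of the same group correlated at 0.992 to 0.993 over their probe sets (Pearson's r, log2 signals). Changes are log2 differences of group means ± SE on the log2(signal + 32) scale, from 1 limma fit over 18913 probe sets of all 9 arrays, with n = 3 per group and p-values adjusted over all of them by the Benjamini-Hochberg method. Levels of different genes were not ranked against each other, and differences between members within an array serve only to show how they shift between groups. The comparisons share arrays, since each group enters 2 of them.

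Krt8, the type II chain at the base of the simple epithelial filament, stood on 3 probe sets that gave the same order of groups. The probe set 1420647_a_at read 23256.5, 21164.8 and 21209.9 on dexamethasone arrays A to C, 18394.3, 17318.4 and 18596.1 on incubated arrays and 3842.2, 4038.2 and 4198.5 on fresh arrays. Every dexamethasone array lay above every incubated array, and every incubated array lay above every fresh array. The second, 1435989_x_at, read 21115.2, 19112.3 and 20807.6 with dexamethasone, 17998.8, 15849.2 and 17254.6 after incubation alone and 3676.1, 3825.9 and 3760.4 in fresh membrane. The last, 1423691_x_at, read 17854.7, 16237.5 and 18197.3 with dexamethasone, 15527.1, 14163.6 and 15126.4 after incubation alone and 3027.8, 2978.3 and 2811.5 in fresh membrane. Again no groups overlapped. Separation of this kind was not counted over all probe sets, so here and below it does not set these genes apart from others. Names ending in _x_at mark probe sets that may hybridize to related transcripts. The highest signal of any probe set on an array was 28687.9 to 33169.4 on dexamethasone arrays, 28724.4 to 31558.6 on incubated arrays and 35197.6 to 38237.0 on fresh arrays, and the files used here carry no saturation call.

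Krt18, the type I partner of Krt8, read 23061.5, 20636.5 and 21487.8 on dexamethasone arrays, 18514.5, 17001.7 and 17306.4 on incubated arrays and 5081.0, 5452.2 and 5452.7 on fresh arrays. Its 3 groups were separate and stood in the same order as those of Krt8. Krt19, a type I keratin with hardly any tail domain, read 5424.4, 5614.0 and 5411.8 with dexamethasone, 4498.4, 4168.0 and 4219.4 after incubation alone and 1865.5, 1734.6 and 1709.7 in fresh membrane. Krt7, a type II keratin of ducts and mesothelia, read 1525.8, 1432.6 and 1526.9 with dexamethasone, 926.6, 932.6 and 957.1 after incubation alone and 226.6, 269.0 and 198.3 in fresh membrane. Both again ran dexamethasone, incubated, fresh from high to low without overlap. The fresh Krt7 arrays sat at the working floor and had a coefficient of variation of 15.4%, against 3.62% on dexamethasone arrays and 1.72% on incubated arrays.

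Sprr1a had another order. Its signal was 503.9, 570.3 and 610.5 on dexamethasone arrays, 1982.6, 1932.2 and 1914.3 on incubated arrays and 36.3, 43.4 and 32.7 on fresh arrays. All 3 fresh arrays lay under the floor of 200, the incubated arrays were the highest, and the dexamethasone arrays lay between them with no overlap. Sprr1a therefore passed the filter through its cultured arrays alone.

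**Figure D1:**
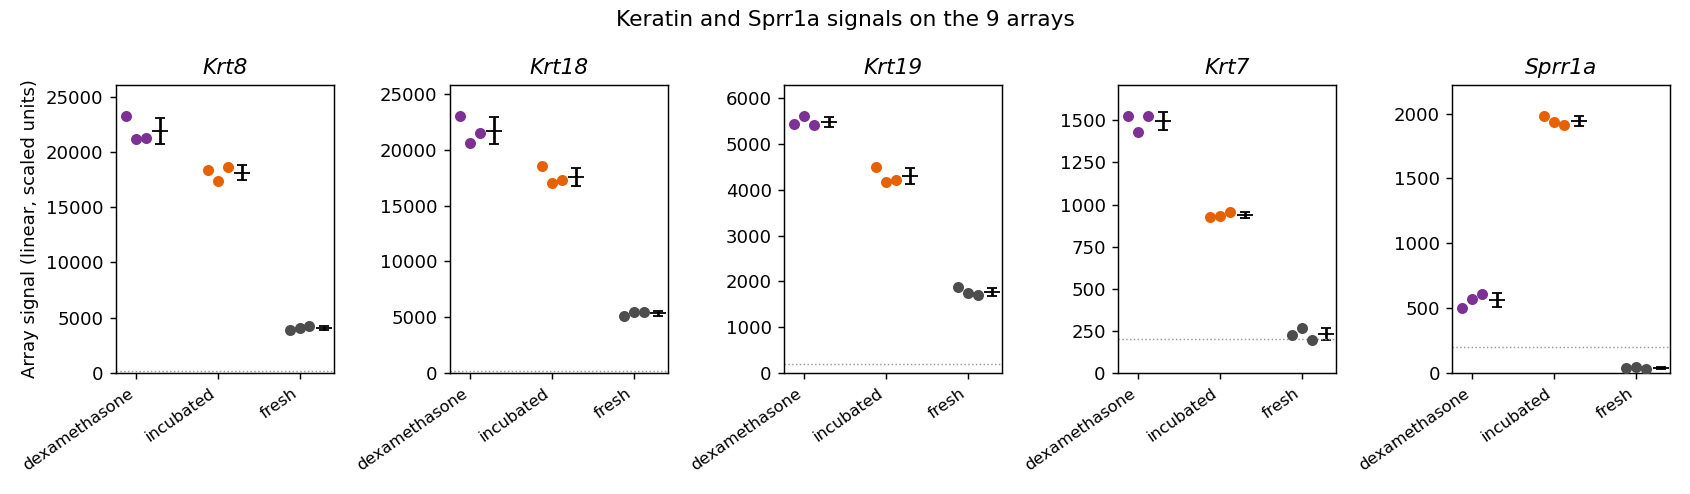
Array signal (linear scale, y axis from 0, a different range per gene) of the representative probe set of Krt8, Krt18, Krt19, Krt7 and Sprr1a on the 3 dexamethasone, 3 incubated and 3 fresh arrays. Points are arrays A to C from left to right, the bar beside them is the mean ± SD, and the dotted line is the floor of 200; the 4 keratins are highest with dexamethasone, while Sprr1a is highest on incubated arrays at 1914.3 to 1982.6.

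The first comparison asked how 24 h in culture without hormone changed these genes. The 4 keratin genes and Sprr1a were all higher in incubated than in fresh membrane, in a comparison where 36.0% of the genes tested were called higher and 40.7% lower. Krt8 was higher by 2.16 ± 0.053 on 1420647_a_at, a ratio of mean signals of 4.50 (18103 ± 687 in incubated against 4026 ± 178 in fresh membrane, SD, n = 3, limma adjusted p = 3.08e-12). On its other probe sets Krt8 was higher by 2.17 ± 0.055 and 2.33 ± 0.055 (limma adjusted p at most 4.32e-12). Krt18 was higher by 1.72 ± 0.054 (limma adjusted p = 2.51e-11) and Krt19 by 1.26 ± 0.051 (limma adjusted p = 2.24e-10). Krt7 was higher by 1.89 ± 0.089 (limma adjusted p = 1.05e-09), with means of 939 ± 16.2 in incubated and 231 ± 35.6 in fresh membrane. In the same comparison 3 of 5 epithelium markers rose and 1 fell, while 5 of 5 fibrocyte and limbus markers and 6 of 6 neuron markers fell. In bulk tissue, fewer cells of a type and less RNA per cell cannot be told apart.

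Sprr1a was at least 9.72-fold higher in incubated membrane, its mean of 1943 ± 35.4 being set against the floor because fresh membrane averaged 37.5 ± 5.45 (limma adjusted p = 4.53e-13). A call at these sizes did not rest on any 1 array: with each array left out in turn, the changes were 2.13 to 2.19 for Krt8 on 1420647_a_at, 1.68 to 1.74 for Krt18, 1.23 to 1.30 for Krt19 and 1.80 to 1.99 for Krt7.

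Within arrays, the log2 difference of Krt8 minus Krt18 was 0.04 ± 0.058 in incubated and -0.40 ± 0.028 in fresh membrane (SD, n = 3), a shift of 0.44 with no overlap (exact two-sided permutation p = 0.1). Krt19 minus Krt18 was -2.03 ± 0.0068 in incubated and -1.57 ± 0.12 in fresh membrane, a shift of -0.45 with no overlap (exact permutation p = 0.1). Krt7 minus Krt18 was -4.18 ± 0.079 in incubated and -4.36 ± 0.20 in fresh membrane, and these arrays overlapped (exact permutation p = 0.2). No such difference is given for Sprr1a, whose fresh arrays lay under the floor. With 3 arrays against 3 these tests cannot go below 0.1, and over the 12 such tests made here the smallest adjusted p was 0.133. Hence these shifts are given as sizes without a call, and unequal changes of the keratins were not shown.

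The second comparison set explants with dexamethasone against explants without it at the same time in culture, where 22.3% of genes were called higher and 28.7% lower. The keratins were slightly higher and Sprr1a was lower under the authors' scaling. Krt7 was higher by 0.65 ± 0.089, a ratio of 1.59 (1495 ± 54.1 against 939 ± 16.2, SD, n = 3, limma adjusted p = 6.62e-05). Krt19 was higher by 0.35 ± 0.051 (limma adjusted p = 9.87e-05) and Krt18 by 0.30 ± 0.054 (limma adjusted p = 5.08e-04). Krt8 was higher by 0.27 ± 0.053, 0.26 ± 0.055 and 0.22 ± 0.055 on its 3 probe sets (limma adjusted p at most 0.00501). Sprr1a fell by 1.74 ± 0.094 on the log2 scale (562 ± 53.8 with dexamethasone against 1943 ± 35.4 without, limma adjusted p = 3.54e-08), and the ratio of its means was 0.289. Neutrophil markers fell in the same comparison: their summed signal was 112 to 206 on dexamethasone arrays, 3150 to 3306 on incubated arrays and 16368 to 17817 on fresh arrays. With dexamethasone 4 of 5 were lower and none of the 5 reached a mean of 200, and in culture 5 of 5 fell while Sprr1a rose. Supporting cell markers summed to 1148 to 1190.5 with dexamethasone, 694 to 798 after incubation and 9214 to 9557 fresh, and all 4 tested were higher with dexamethasone (3 higher and 1 lower with hybridization control scaling). Quantile normalization and centring on 5 epithelium markers each gave 3 higher and 0 lower. Only 1 of these markers reached a mean of 200 after incubation and 3 did with dexamethasone, and 1 of the 4 was under 200 in both groups. The part of neutrophils and supporting cells in the changes of Sprr1a and the keratins was not tested.

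The keratin direction under dexamethasone depended on how arrays were scaled, and the Sprr1a direction did not under the scalings tried. Scaling each array to its spiked-in hybridization controls moved the median change of all probe sets by dexamethasone to -0.455, against 0.0071 under the authors' scaling, and left 3.96% of genes called higher and 78.2% called lower. On that scale Krt8 changed by -0.22, -0.23 and -0.27 on its 3 probe sets, Krt18 changed by -0.19 and Krt19 by -0.14, the last without a call (limma adjusted p = 0.101). Krt7 was at 0.17 without a call (limma adjusted p = 0.148), and Sprr1a was at -2.21 (limma adjusted p = 1.03e-10). Relative to the median of all probe sets on that scale, the keratins stood 0.24, 0.22 and 0.19 (Krt8), 0.27 (Krt18), 0.32 (Krt19) and 0.63 (Krt7) above it, and Sprr1a stood at -1.76. The scale factors from the controls were 1.13 to 1.21 on dexamethasone arrays, 0.804 to 0.867 on incubated arrays and 0.990 to 1.07 on fresh arrays. With quantile normalization the dexamethasone change of Krt8 was 0.12 on 1420647_a_at (limma adjusted p = 0.0573) and 0.086 on 1423691_x_at (limma adjusted p = 0.102), neither called, and 0.12 on 1435989_x_at (limma adjusted p = 0.0202).

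Culture effects were larger than these shifts. Under hybridization control scaling, incubated against fresh gave 2.50 for Krt8 on 1420647_a_at, 2.06 for Krt18, 1.60 for Krt19 and 2.21 for Krt7, where the median of all probe sets was 0.271. Sprr1a was also called higher, with no size given because its fresh arrays lay under the floor. Of all calls in that comparison, 69.2% were then higher, against 46.9% under the authors' scaling.

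**Figure D2:**
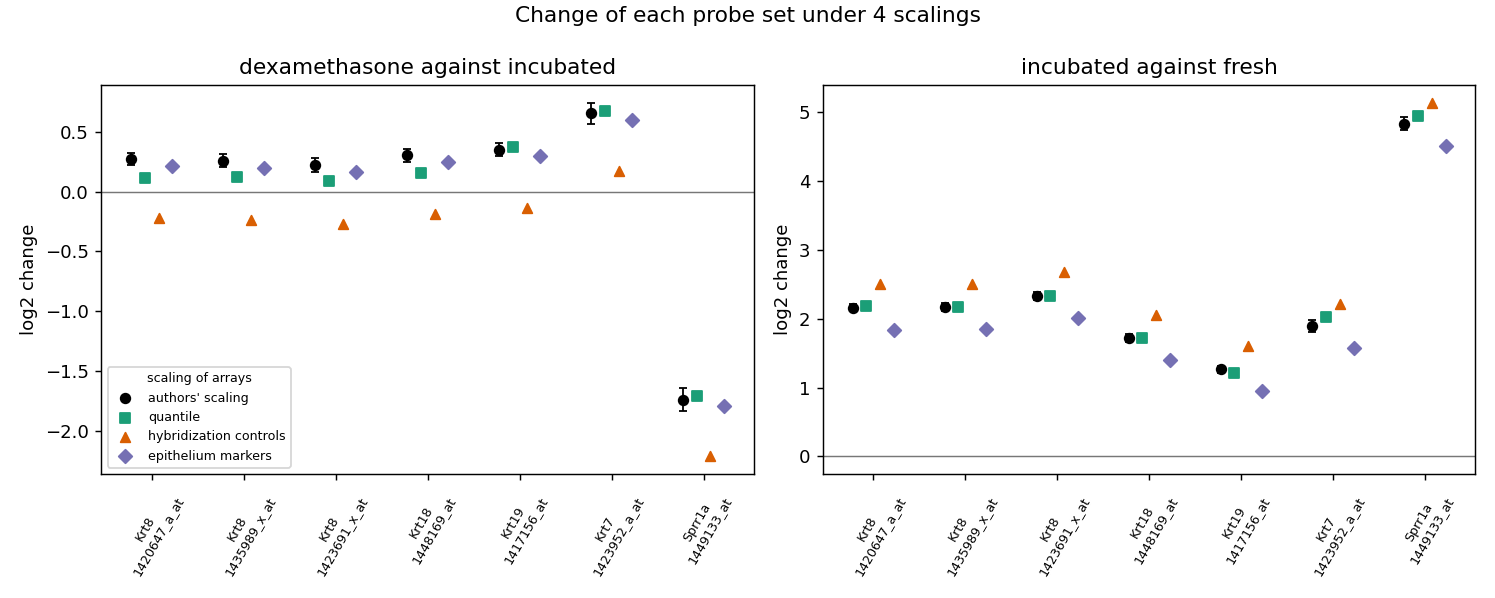
The log2 change of each of the 7 probe sets of Krt8, Krt18, Krt19, Krt7 and Sprr1a (x axis) for dexamethasone against incubated (left) and incubated against fresh (right), under 4 scalings of the arrays (markers), with bars of ± SE for the authors' scaling. On the left the keratins lie above 0 except under hybridization control scaling, where all but Krt7 lie below it, and Sprr1a lies between -2.21 and -1.71 throughout; on the right every change is above 0, and that of Sprr1a is a fitted value against arrays under the floor, which is no bound.

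Within arrays, where scaling largely cancels, Krt7 minus Krt18 was -3.83 ± 0.053 with dexamethasone and -4.18 ± 0.079 without it, a shift of 0.35 with no overlap (exact permutation p = 0.1, the smallest possible). Sprr1a minus Krt8 was -5.21 ± 0.21 with dexamethasone and -3.20 ± 0.058 without, a shift of -2.01 with no overlap (exact permutation p = 0.1). Krt8 against Krt18 shifted by -0.03 (exact permutation p = 0.6) and Krt19 against Krt18 by 0.05 (exact permutation p = 0.7), and in both cases the arrays overlapped. A p at this size does not show that these pairs changed alike.

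Against fresh membrane, whose arrays also enter the first comparison, explants with dexamethasone stood higher for all 5 genes, where 35.4% of genes were called higher and 42.7% lower. Krt8 was higher by 2.43 ± 0.053 on 1420647_a_at, Krt18 by 2.02 ± 0.054, Krt19 by 1.61 ± 0.051 and Krt7 by 2.54 ± 0.089 (limma adjusted p at most 5.65e-11). Sprr1a remained at least 2.81-fold higher, with 562 ± 53.8 in dexamethasone and 37.5 ± 5.45 in fresh membrane (limma adjusted p = 1.52e-11).

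Among the members, the likeness of profiles over the 9 arrays was measured as the root mean square difference of log2 values, each gene centred on its own mean. Krt8 and Krt7 differed by 0.196, Krt8 and Krt18 by 0.204 and Krt18 and Krt19 by 0.218. The other keratin pairs were further apart, with Krt18 and Krt7 at 0.241, Krt19 and Krt7 at 0.402 and Krt8 and Krt19 at 0.413. Sprr1a differed from the keratins by 1.14 to 1.47. Outside the members, the gene nearest to Krt8 was Mt1, a metallothionein, at 0.0730, followed by the actin-disassembly gene Wdr1 at 0.0967. Mt1 read 18105 ± 688 with dexamethasone, 15745 ± 952 after incubation and 3161 ± 99.2 in fresh membrane, on a probe set that may hybridize to related transcripts. Nearest to Krt18 were Tpm4, a tropomyosin, at 0.0741 and the proteasome gene Psmd8 at 0.0845. Krt19 lay closest to Podxl, a sialomucin of apical membranes, at 0.0579 and the cyclin gene Ccnd1 at 0.0635. Krt7 had Mthfd2, a mitochondrial folate enzyme, at 0.0959 and the actin cross-linker gene Flna at 0.105.

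The genes nearest to Sprr1a were further away, with the chemokine gene Ccl5 at 0.219 and the growth factor binding protein gene Igfbp3 at 0.273. Ccl5 averaged 209 ± 48.8 with dexamethasone, 969 ± 68.7 after incubation and 4.13 ± 0.929 in fresh membrane. Igfbp3 averaged 2489 ± 119, 5858 ± 149 and 169.9 ± 30.9 in the same groups. Next came Rgs5 at 0.283 and Cd244a at 0.299, both likewise highest on incubated arrays. Fresh means of Sprr1a and of these 4 genes lay under the floor, so all distances from Sprr1a, also those to the keratins, rest in part on values that are no measured sizes. Likenesses here are over 9 arrays of 3 groups, which share their group differences.

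The rest of the keratin family lay mostly under the floor. Of 44 other keratin genes on the array, 41 did not pass the filter, and the highest group mean among these was 162.1 (Krt222). The 3 that passed were Krt10, Krt42 and Krt80. Krt80, a type II keratin and the gene next to Krt7 on chromosome 15, averaged 498 ± 27.2 with dexamethasone, 237 ± 4.15 after incubation and 100.4 ± 8.56 in fresh membrane (SD, n = 3). It was at least 1.18-fold higher in incubated than in fresh membrane and higher by 0.98 ± 0.10 with dexamethasone (limma adjusted p = 6.19e-06), and its arrays stood in the order of the 4 simple keratins. Krt10, a keratin of stratified epithelia, fell by 0.58 ± 0.093 in culture (412 ± 43.5 with dexamethasone, 382 ± 26 incubated and 586 ± 36.2 fresh, limma adjusted p = 9.71e-05). Krt42 fell by 0.45 ± 0.12 (limma adjusted p = 0.00407) on a probe set that may hybridize to related transcripts. Neither was called with dexamethasone, where Krt10 changed by 0.10 (limma adjusted p = 0.396) and Krt42 by 0.23 (limma adjusted p = 0.126). With hybridization control scaling the Krt42 change in culture was -0.13 without a call (limma adjusted p = 0.360), and Krt10 was called lower with dexamethasone at -0.36 (limma adjusted p = 0.00574).

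Neighbours on the chromosome were read by gene order alone. Krt8 and Krt18 lie side by side on chromosome 15. The 5 keratin genes on the far side of Krt8, Krt78, Krt79, Krt4, Krt76 and Krt77, all had group means under 200, with 59.2, 54.1 and 73.6 for Krt79 in dexamethasone, incubated and fresh membrane. Eif4b, a translation factor gene on the other side of Krt18, averaged 1018 ± 29.3 with dexamethasone, 1391 ± 95.9 after incubation and 1376 ± 28.3 fresh. Krt19, on chromosome 11 in the type I cluster, had 9 neighbours on the array, of which 8 stayed under 200. Of the 10 genes nearest to Sprr1a on chromosome 3, 8 were on the array and all had group means under 200; its close relatives Sprr1b (7.27, 4.07 and 13.9) and Sprr3 (43.3, 32.7 and 24.8) stood far below the floor in dexamethasone, incubated and fresh membrane.

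**Figure D3:**
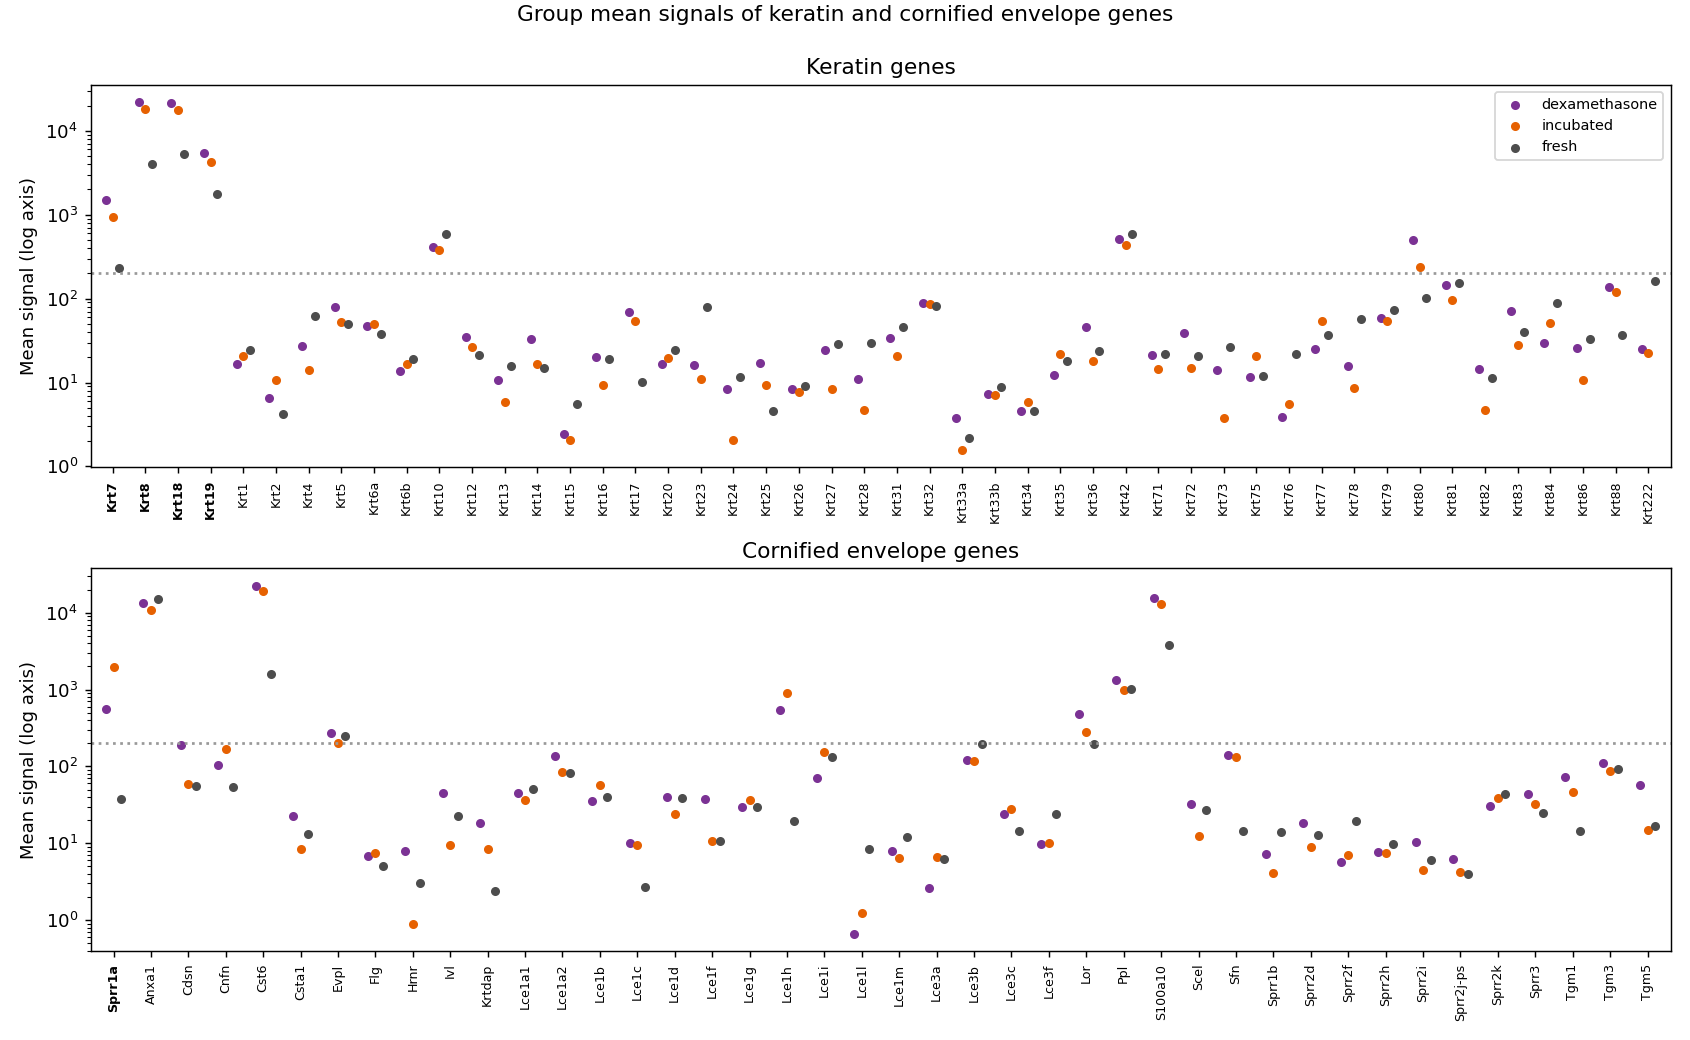
Group mean signal (log axis, n = 3 arrays per point) of the 48 keratin genes on the array, with the 4 members first in bold (top), and of the cornified envelope genes with Sprr1a first (bottom), for dexamethasone, incubated and fresh membrane; genes follow their symbols, levels of different genes are not compared, and the dotted line is the floor of 200. Besides the members, Krt10, Krt42 and Krt80 alone among keratins passed the filter, and the 8 Sprr genes other than Sprr1a lie under the line.

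Cornified envelope genes other than Sprr1a were measured in a list of 41, of which 34 did not pass the filter (highest group mean 194.3, Lce3b). Involucrin (Ivl), filaggrin (Flg) and the transglutaminases Tgm1, Tgm3 and Tgm5 were among those under the floor. Of the 7 tested in incubated against fresh membrane, 3 rose, 1 fell and 3 were not called, and the median of the 7 was 0.51, beside -0.0387 over all genes tested. These counts became 5 and 0 with hybridization control scaling and 3 and 3 with each array centred on 5 epithelium markers. Under dexamethasone 5 rose and 1 fell (median 0.32 beside -0.0304), which became 0 and 4 with hybridization control scaling. Over all genes 22.3% rose and 28.7% fell with dexamethasone, and 36.0% and 40.7% in culture. Lce1h, a late cornified envelope gene, was the closest in pattern within the list. It averaged 535 ± 31.6 with dexamethasone, 888 ± 134 after incubation and 19.3 ± 5.26 fresh, was at least 4.44-fold higher in culture (limma adjusted p = 1.60e-11) and fell by 0.69 ± 0.12 with dexamethasone (limma adjusted p = 5.41e-04). Its probe set may hybridize to related transcripts.

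The other rises in that list came from Cst6, which encodes the protease inhibitor cystatin E/M, and S100a10, the annexin-binding p11. Cst6 averaged 22360 ± 1543 with dexamethasone, 19214 ± 1029 after incubation and 1588 ± 30.6 fresh, higher by 3.57 ± 0.057 in culture (limma adjusted p = 9.65e-14). S100a10 averaged 15349 ± 239, 12834 ± 912 and 3850 ± 217 in the same groups, higher by 1.73 ± 0.058 (limma adjusted p = 4.24e-11). Both are expressed outside stratified epithelia. Anxa1, the annexin A1 gene, fell by 0.47 ± 0.052 in culture, and the plakin genes Ppl (periplakin) and Evpl (envoplakin) were at -0.03 and -0.32 without a call. With hybridization control scaling Anxa1 was at -0.14 without a call (limma adjusted p = 0.0711) and Ppl was called higher at 0.30, while with epithelium markers Ppl was called lower at -0.34 and Evpl at -0.64. With dexamethasone Ppl was higher by 0.41 ± 0.069 and loricrin (Lor) by 0.69 ± 0.23, and both calls ended with hybridization control scaling, where Ppl was at -0.07 and Lor at 0.24.

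Genes that anchor keratin filaments to desmosomes and hemidesmosomes rose with the keratins in part. Of 14 tested, 9 rose and 3 fell in incubated against fresh membrane (median 0.45), where 36.0% and 40.7% of all genes did. With dexamethasone 9 rose and 1 fell (median 0.34), where 22.3% and 28.7% of all genes did. Hybridization control scaling changed these counts to 10 and 3 in culture and to 1 and 5 with dexamethasone. Centring on epithelium markers gave 6 and 4 in culture (median 0.13) and 9 and 1 with dexamethasone. The hemidesmosomal integrin genes Itga6 and Itgb4 were higher in culture by 1.34 ± 0.059 and 1.20 ± 0.099 (limma adjusted p at most 1.89e-07). Perp, a tetraspan gene of desmosomes, averaged 7657 ± 77.1 with dexamethasone, 5936 ± 210 after incubation and 3121 ± 149 fresh. The keratin linkers Plec (plectin) and Eppk1 (epiplakin) had the largest called rises of this list with dexamethasone. Eppk1 averaged 3073 ± 57.3 with dexamethasone, 1661 ± 111 without and 1756 ± 127 fresh, higher by 0.88 ± 0.064 with dexamethasone (limma adjusted p = 4.40e-07) and not called in culture (-0.08), where it was called higher at 0.25 with hybridization control scaling and lower at -0.40 with epithelium markers. Plec was higher by 0.65 ± 0.044 in culture and by 0.62 ± 0.044 with dexamethasone, the second without a call at 0.14 with hybridization control scaling. Dsp (desmoplakin) was higher by 0.29 ± 0.047 in culture and by 0.21 ± 0.047 with dexamethasone, and each of these turned sign under 1 of the scalings tried. Dst (dystonin) and Pkp4 (plakophilin 4) went the other way in culture, by -1.86 ± 0.086 and -0.69 ± 0.051.

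Of 11 other intermediate filament genes tested, 4 rose and 5 fell in culture, shares near the 36.0% and 40.7% over all genes, and 1 rose and 3 fell with dexamethasone, beside 22.3% and 28.7% over all genes. Hybridization control scaling gave 6 and 5 in culture and 1 and 9 with dexamethasone. The rise (Nefh) and 1 of these falls (Nefl) with dexamethasone were between means under 200, for which no fold is given. The rises in culture were Vim (vimentin, 0.95 ± 0.057), Lmna (lamin A, 1.15 ± 0.057), Nes (nestin, 1.10 ± 0.17) and Des (desmin, 0.26 ± 0.11, and -0.06 without a call with epithelium markers). All 5 falls were of genes under 200 in culture, the neurofilament genes Nefl (at least 32.4-fold lower), Nefh (at least 16.6-fold lower) and Nefm (at least 9.28-fold lower), Synm (synemin, at least 5.67-fold lower) and Ina (internexin, at least 3.18-fold lower). Vim averaged 7862 ± 378 with dexamethasone, 8521 ± 572 without and 4397 ± 157 fresh, and its dexamethasone change of -0.11 was not called (limma adjusted p = 0.110). Vim was called lower with dexamethasone at -0.60 with hybridization control scaling (limma adjusted p = 6.91e-07) and at -0.17 with epithelium markers (limma adjusted p = 0.0282). Of 14 genes that modify or bind keratin filaments, 7 rose and 3 fell in culture, and 3 rose and 4 fell with dexamethasone. The culture counts stand beside 36.0% and 40.7% over all genes. Those with dexamethasone were near the 22.3% and 28.7% over all genes. Hspb1, a small heat shock protein gene, was higher by 0.64 ± 0.075 with dexamethasone (0.15 without a call with hybridization control scaling), and Casp6, whose caspase cleaves K18, fell by 0.68 ± 0.071. Hybridization control scaling changed these counts to 11 and 0 in culture and to 0 and 12 with dexamethasone, and centring on epithelium markers changed the culture counts to 1 and 7.

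Transcription factors known at simple keratin or Sprr promoters were mostly higher in culture. Of 15 tested, 11 rose and 3 fell in incubated against fresh membrane (median 0.77), and 9 rose and none fell with dexamethasone (median 0.42, or 0.39 with Gata3, under 200 in both groups, held at 0), against 3 and 6 with hybridization control scaling. Over all genes 36.0% rose and 40.7% fell in culture, and 22.3% and 28.7% with dexamethasone (3.96% and 78.2% with hybridization control scaling). AP-1 subunits were among the factors that rose in culture. Fosl1 averaged 2356 ± 43.6 with dexamethasone, 1718.5 ± 93.9 without and 6.17 ± 4.45 fresh, at least 8.59-fold higher in culture and higher by 0.45 ± 0.090 with dexamethasone, a sign that hybridization control scaling turned (-0.034). Jun was higher by 2.23 ± 0.060 in culture and 0.72 ± 0.060 with dexamethasone. In the same comparisons Junb was higher by 1.75 ± 0.11 and 0.57 ± 0.11, and Fosl2 by 2.24 ± 0.090 and 0.56 ± 0.090. Fos was higher by 3.04 ± 0.096 in culture and was not called with dexamethasone (-0.10, limma adjusted p = 0.391). Jund was higher by 0.71 ± 0.093 in culture and was not called with dexamethasone either (0.13, limma adjusted p = 0.245). With hybridization control scaling Junb and Fosl2 were at 0.09 and 0.08 with dexamethasone without a call, while Fos and Jund were called lower at -0.59 and -0.35. Of the Krüppel-like factors, Klf6 was higher by 1.32 ± 0.067 in culture and by 0.74 ± 0.067 with dexamethasone. Klf4 was at 0.37 in culture (0.05 without a call with epithelium markers) and at 0.39 with dexamethasone. Klf5 went the other way in culture at -0.22 and was at 0.61 with dexamethasone. With hybridization control scaling Klf5 was at 0.11 and 0.13, and Klf4 with dexamethasone at -0.09, all without a call. Gata3 was at least 4.42-fold lower in culture.

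The gp130 cytokine pathway, known upstream of Sprr1a in rodent neurons and heart, gave 8 rises and 5 falls of 16 tested genes in culture (median 0.36, or 0.17 with genes under 200 held at their bounds). With dexamethasone 11 rose and 4 fell (median 0.61, or 0.57 with bounds), and hybridization control scaling gave 12 and 4 and then 7 and 6. Over all genes 36.0% rose and 40.7% fell in culture, and 22.3% and 28.7% with dexamethasone. Of the 20 list genes on the array, 4 did not pass the filter. Of the receptors, Osmr (oncostatin M receptor) averaged 2132 ± 107 with dexamethasone, 1655 ± 63.5 without and 226 ± 18.4 fresh, higher by 2.71 ± 0.070 in culture (limma adjusted p = 4.76e-12). Lifr, the leukaemia inhibitory factor receptor gene, went the other way in culture (-1.86 ± 0.066) and was higher by 0.79 ± 0.066 with dexamethasone. Il6ra was also lower in culture and higher with dexamethasone under every scaling tried. Il6st, the gene of gp130 itself, was at -0.16 in culture and 0.67 with dexamethasone. With hybridization control scaling the Il6st change in culture turned to 0.18. Among ligands, Clcf1 was at least 1.23-fold higher in culture and higher by 1.20 ± 0.13 with dexamethasone. The other ligand gene tested, Ctf1, went the other way in culture (-0.86), called lower under every other scaling tried, and was at -0.12 with dexamethasone. Sox11 was likewise at -0.63 in culture and -0.45 with dexamethasone. Downstream, Cebpd averaged 3645 ± 66.4 with dexamethasone, 1605 ± 28.4 without and 857 ± 26.8 fresh, higher by 0.88 ± 0.049 in culture and by 1.17 ± 0.049 with dexamethasone. Atf3, a stress factor induced with Sprr1a in injured neurons, was at least 3.76-fold higher in culture and higher by 0.68 ± 0.19 with dexamethasone, which was 0.20 without a call with hybridization control scaling. Gap43, a growth cone gene of the same injury response, was not called in culture (0.05, limma adjusted p = 0.767, but called higher at 0.35 with hybridization control scaling) and was at least 1.52-fold lower with dexamethasone.

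**Figure D4:**
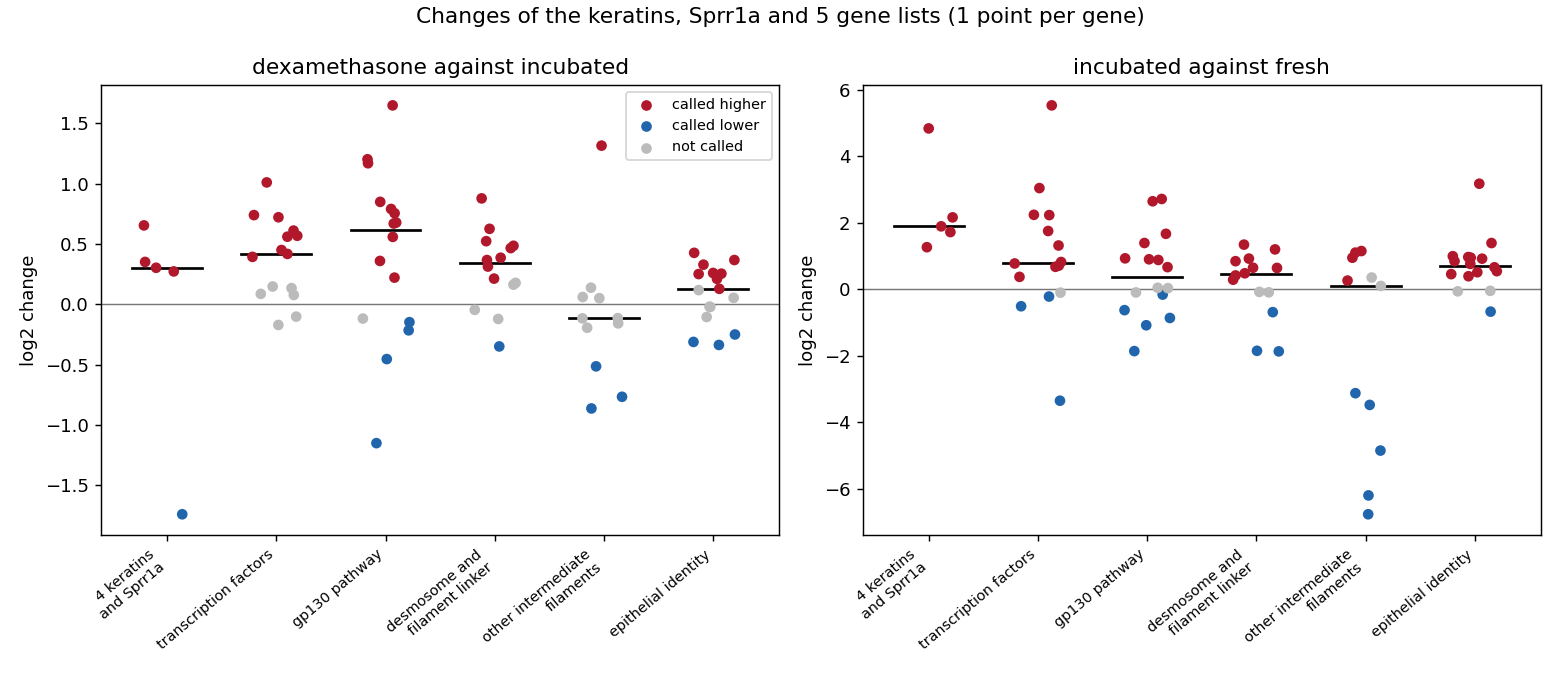
The log2 change (y axis, a different range per panel) of the 4 keratin genes and Sprr1a and of the tested genes of 5 lists (x axis), 1 point per gene coloured by its call and a bar at the median, for dexamethasone against incubated (left) and incubated against fresh (right) under the authors' scaling. Sprr1a is the point at -1.74 on the left and 4.83 on the right, and genes under 200 in a group are drawn at their fitted change, which is no bound.

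Most other epithelial genes tested rose in culture as well, while markers of strial marginal and supporting cells fell. Of 16 tested genes of epithelial identity, 13 rose and 1 fell in incubated against fresh membrane (median 0.71, or 0.60 with a gene at its bound). With dexamethasone 8 rose and 3 fell (median 0.12). Over all genes 36.0% rose and 40.7% fell in culture, and 22.3% and 28.7% with dexamethasone. Hybridization control scaling gave 15 and 1 and then 0 and 13, while epithelium markers gave 12 and 3 in culture and 4 and 3 with dexamethasone. The claudin gene Cldn4 was higher by 3.17 ± 0.046 in culture. Cdh1, which encodes E-cadherin, averaged 12854.5 ± 661 with dexamethasone, 10811 ± 797 without and 7391 ± 108 fresh (0.54 ± 0.057 in culture). The summed signal of 5 epithelium markers (Cdh1, Epcam, Cldn7, Esrp1 and Spint2) was 38612 to 40336 on dexamethasone arrays, 38443 to 39096 on incubated arrays and 34278 to 35575 on fresh arrays, with all 5 at or above 200 in every group. These 5 are also in the identity list, and Spint2 among them was at -0.67 in culture, called lower under every scaling tried. Strial marginal cell markers summed to 11518 to 12386, 11617 to 11945 and 36774 to 38661 in the same groups, and 5 of 5 fell in culture. All 4 supporting cell markers tested fell too. The part of these cells in the keratin changes was not tested.

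Fibrocyte, limbus and neuron markers were lower in the cultured groups, in which the keratins were higher. The summed signal of 5 fibrocyte and limbus markers was 1421 to 1579 on dexamethasone arrays, 1424 to 1550 on incubated arrays and 56834 to 58543 on fresh arrays, and 5 of 5 fell. For 6 neuron markers the sums were 192 to 303 (302.5 at most), 149 to 239 and 16605 to 17685, and 6 of 6 fell, to means under 200. When each array was instead centred on its 5 epithelium markers, a setting added after seeing the data, incubated against fresh gave 1.84 for Krt8, 1.40 for Krt18, 0.95 for Krt19 and 1.57 for Krt7, all called, with a median of -0.37 over all probe sets and 25.3% of calls higher. Sprr1a was called higher there too. On the same scale dexamethasone against incubated gave 0.21 for Krt8, 0.24 for Krt18, 0.29 for Krt19, 0.60 for Krt7 and -1.80 for Sprr1a, all called, with 33.6% of calls higher.

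Markers of stratified epithelium, in which Sprr1a is best known, were near background apart from Krt10, whose mean was above 200 in every group. Of 6 markers, Krt5, Krt14, Krt1, Krt15 and Trp63 did not pass the filter, with group means of at most 78.5 (Krt5, with dexamethasone), and the sum over all 6 was 537 to 595.5 on dexamethasone arrays, 466 to 529 on incubated arrays and 655 to 738 on fresh arrays. Of 7 mesothelium markers, Msln (mesothelin) alone passed the filter, at 941 ± 24.3 with dexamethasone, 1203 ± 37.1 without and 45.1 ± 10.7 fresh. All 7 together summed to 1127 to 1261 with dexamethasone, 1358 to 1424 after incubation and 370.5 to 466 fresh. Msln alone reached a mean of 200 in the cultured groups, and in fresh membrane only a marker other than Msln did. The rise of the sum over all 7 in culture was that of Msln. Together the other 6 were lower in both cultured groups than in fresh membrane, at values mostly under 200. Krt7, Krt8, Krt18 and Krt19 are also expressed by mesothelia, and the part of the mesothelial layer in their changes was not tested. Macrophage markers summed to 6561 to 6617 with dexamethasone, 5265 to 5566 after incubation and 4355 to 4631 fresh, and of 6 tested 4 rose and 1 fell in culture. With dexamethasone 3 rose and 1 fell, which became 1 and 3 with hybridization control scaling. Over all genes 36.0% rose and 40.7% fell in culture. The shares with dexamethasone were 22.3% and 28.7%, or 3.96% and 78.2% with hybridization control scaling.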

How the data were processed

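Signals of 9 arrays, 3 per group, were taken as deposited. They are linear intensity values, 1 per probe set, that the authors scaled over all probe sets of each array to a target of 500, per the labels. RNA was amplified through a pair of in vitro transcription rounds, per the labels' protocols, which can shift signals toward the 3′ ends of transcripts. The summarising software is not given in the sources used here. No detection calls were used. Of 45101 probe sets, 64 were controls, 34945 had 1 gene symbol in the annotation used, 932 had several and 9160 had none, and genes were named from the first kind alone. For 204 of those the gene ID was not in the gene table.

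Probe sets that reached 200 on at least 3 of 9 arrays were tested as log2(signal + 32) in limma 3.58.1 (R 4.3.3), with 1 mean per group, an intensity trend and Benjamini-Hochberg adjustment over 18913 probe sets; a call means an adjusted p under 0.05. A gene stands on its tested probe set of highest mean log2 signal. Where all 3 arrays of a group lay under 200, the other group's mean over 200 is given as a bound. Differences between members within arrays were tested by exact permutation over 20 arrangements of arrays. Named genes were the 5 members, the 4 genes nearest each in profile, and list genes chosen by smallest adjusted p or to describe a list in full. The members, gene lists and tests were chosen with earlier results of these data known. Promoters came from RefSeq (GRCm38.p6), and proteins were not used here. The fit was tested on simulated data. The labels do not say whether array letters pair the samples, which were treated as unpaired. Deviations of same-letter arrays correlated at -0.062 to 0.164 over 9 pairs, and those of arrays with other letters at -0.157 to 0.153. With so few arrays these values cannot settle a pairing, and no 2 arrays were identical. Python 3.11.15 with pandas 2.3.3 and NumPy 2.4.6 handled tables, and matplotlib 3.10.9 drew the figures.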

Additional observations from a re-analysis of the deposited data

How the results depend on the processing

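The changes of the 7 member probe sets in incubated against fresh and in dexamethasone against fresh membrane kept their direction and call under all settings tried for them, which were 17 per comparison. These settings were other scalings, pseudocounts of 1 and 100, other filters, no intensity trend, only the groups compared, the array letter as a block, each array left out and, added after seeing the data, centring on 5 epithelium markers. In dexamethasone against incubated membrane, hybridization control scaling left 0 member probe sets called higher and 5 lower, against 6 and 1 under the authors' scaling. It turned Krt8 to -0.22, -0.23 and -0.27, Krt18 to -0.19 and Krt19 to -0.14 and ended the call of Krt7, and quantile normalization ended the calls of 2 Krt8 probe sets; the cause was not tested. With a pseudocount of 100, which draws low signals together by construction, Krt7 minus Krt18 in culture became -0.051 and Sprr1a minus Krt8 for dexamethasone against fresh became -0.15, against 0.17 and 0.66, the second pair being fitted against fresh Sprr1a under the floor and no measure of size. With the array letter as a replicate block, 14130, 9811 and 14369 probe sets were called for incubated against fresh, dexamethasone against incubated and dexamethasone against fresh, beside 14213, 9936 and 14419 without it, and no member's call changed. Calls over the whole array split differently by scaling: for dexamethasone against incubated, 4.83% of called genes were higher with hybridization controls and 33.6% with epithelium markers, against 43.7%, and for incubated against fresh 69.2% and 25.3%, against 46.9%. For dexamethasone against fresh the shares were 34.8% and 22.1%, against 45.3%. Fresh Krt7 and fresh Sprr1a sat at or under the floor of 200, which limits how far their changes can be measured.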
